A study of Eohaustorius estuarius with 16 samples.

Results

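The 100 most constant contigs of the amphipod Eohaustorius estuarius are described here as possible references, the transcripts against which others are scaled. A contig is an assembled transcript fragment, and each was measured by 1 probe on a 1-colour (Cy3) Agilent array. The level of a contig on an array was its log2 processed signal minus the log2 of that array's 75th percentile over all contig spots, averaged over its spots. The array held 8507 contigs. Those with 1 or 2 spots that were all well above background on all 16 arrays were kept, and the 200 with the highest mean over the control arrays were left out, which left 5986. The 100 with the lowest SD over all 16 arrays are 1.67% of these and 1.18% of all contigs. The SDs, and with them the range, the group means and every other value computed from the same 16 levels, chose these contigs, so they are given as a description without a test.

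The RNA came from whole bodies after 10 days in sediment spiked with solvent (8 control samples) or with cyfluthrin, a pyrethroid insecticide, nominally 1.6 µg/kg (8 cyfluthrin samples). One laboratory made the extracts, and laboratory B, one of 6 in a comparison between laboratories, labelled and hybridised those described here. The design text counts 8 amphipods per group, but neither it nor the labels state plainly that each extract was 1 animal or how animals were housed, and the spread behind each p-value is that between these samples, which may be partly technical. In whole bodies, fewer cells of a type and less RNA per cell cannot be told apart.

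A reference transcript is one whose share of the RNA stays nearly the same from sample to sample, so that it can stand for the amount of RNA loaded. In animals such references are commonly sought among genes for ribosomal proteins, translation factors, actin and tubulin, because every cell uses them, but their constancy has to be measured for each tissue and treatment. Spike-in RNA, added in a fixed amount during labelling, is the other common yardstick. The files name the contigs by number alone and hold no probe sequence, so it was not known here whether any of the 100 belongs to those gene classes.

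The arrays lay on 2 slides, and each slide carried 4 arrays of either group. On slide 1 the controls lay in row 2 and the cyfluthrin arrays in row 1, and on slide 2 the reverse. Processed signals had a 75th percentile between 463 and 796, and 80.6% to 95.4% of the contig spots were well above background. Spike-in probes set control replicate 3 and cyfluthrin replicate 1 apart as the lowest and the highest array. Their spike-in level relative to the mean of the 100 contigs was -0.14 and 1.58 on the log2 scale, against 0.53 to 1.20 on the other 14 arrays. Cyfluthrin replicates 5 and 2, at 1.20 and 0.96, also lay above every control. Values that rest on the spike-in probes are also given without the lowest and the highest array.

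The most constant contig was contig_4040, with an SD of 0.077 log2 units over the 16 arrays. Its level was 0.48 at the lowest, 0.62 at the median and 0.74 at the highest of the control arrays, and 0.49, 0.63 and 0.70 of the cyfluthrin arrays. The groups thus covered nearly the same span, and the array with the highest level exceeded that with the lowest 1.20-fold. In contig_2181 the SD was 0.078, and the levels ran from -0.43 through a median of -0.33 to -0.26 in control and from -0.51 through -0.36 to -0.18 with cyfluthrin. Here the span of the controls lay wholly inside that of the cyfluthrin arrays.

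A far brighter transcript was contig_7624, at a mean level of 2.23 and an SD of 0.085. Its control levels were 2.09, 2.23 and 2.29 (lowest, median and highest) and its cyfluthrin levels 2.08, 2.27 and 2.38. The lowest control and cyfluthrin arrays were those of replicates 1 and 2, and the groups overlapped over nearly the whole range. The level of contig_8105 lay between -0.86 and -0.65 in control (median -0.72) and between -0.93 and -0.67 with cyfluthrin (median -0.73; SD over all arrays 0.086). With a single spot per array, contig_4193 still had an SD of 0.096, and its control levels ran from -1.41 through -1.18 to -1.09 and its cyfluthrin levels from -1.20 through -1.14 to -0.96. The -1.41 belonged to control replicate 7, and the other 7 controls lay at -1.22 or above.

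Among all 100 the SD rose from 0.077 to 0.139, with a median of 0.127, against a median of 0.325 over the 5986 contigs. The array with the highest level exceeded the one with the lowest 1.20- to 1.52-fold, with a median of 1.35-fold, where the median over the 5986 was 2.25-fold. No gap in the SDs marked the edge of the list. The last contigs inside were contig_6753 with an SD of 0.1385, contig_2313 with 0.1385 and contig_4923 with 0.1388, and the next outside were contig_713, contig_7993 and contig_4211, each with 0.1392.

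**Figure D1:**
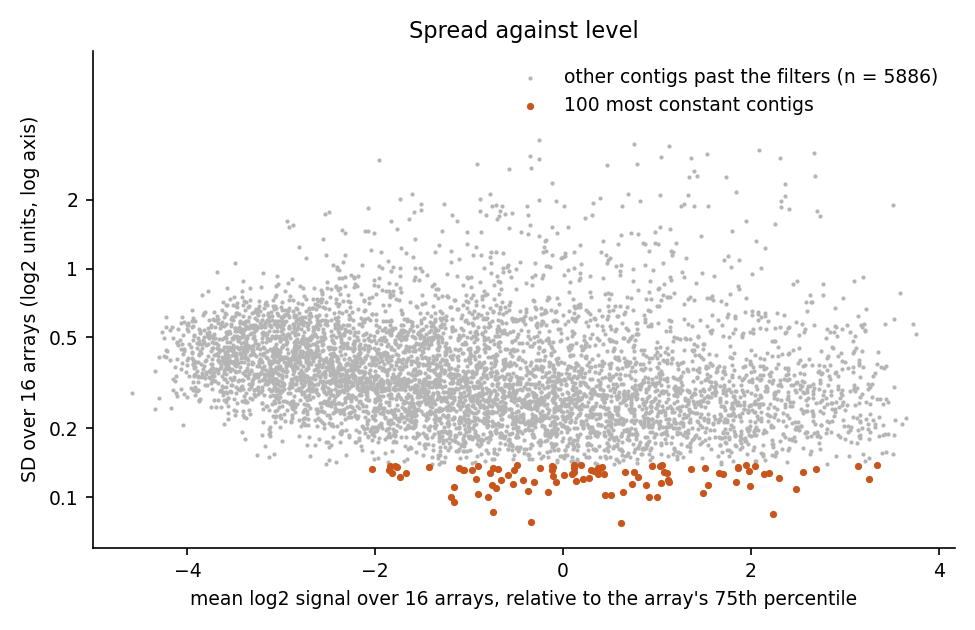
SD over the 16 arrays (log2 units, log axis) against the mean level (log2 signal relative to the array's 75th percentile) for the 5986 contigs past the filters; orange points are the 100 most constant contigs. They span levels from -2.03 to 3.35 and are absent from the dim end, where the lowest SDs lie higher.

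The 100 covered a wide range of levels. The dimmest was contig_8553, measured by 1 spot, at a mean level of -2.03 and a mean processed signal of 153. Its levels were -2.33, -2.03 and -1.87 in control (lowest, median and highest) and ran from -2.18 to -1.83 with cyfluthrin, so the groups overlapped. The brightest was contig_166, at 3.35 and a signal of 6337, with levels of 3.20, 3.39 and 3.47 in control and 3.02, 3.38 and 3.58 with cyfluthrin. All of its control arrays lay inside the span of the cyfluthrin arrays. The median level was 0.24, against -1.04 over the 5986 contigs, and 55 of the 100 lay within 1 log2 unit of the array's 75th percentile, as did 31.5% of the 5986.

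When the 5986 contigs were split by level into 10 equal bins, the 3 dimmest bins held none of the 100, the next 2 held 15 and the upper 5 held 85. The dim end had no contig as constant: the 10 lowest SDs of the dimmest bin had a median of 0.208, against 0.114 to 0.121 in each of the upper 5 bins. The fill of the upper bins was uneven but without a trend, from 13 to 23 a bin. A reference at the level of dim transcripts was thus not found by the rule.

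Of the 100, 31 had 1 spot and 69 had 2, close to the 27.1% and 72.9% among the 5986. The median SD was 0.127 for both, but the choice of low SDs kept these medians close. Over the 5986 it was 0.334 with 1 spot and 0.324 with 2. The 3 probe sets that the probe names distinguish held 49, 21 and 30 of the 100 and 44.3%, 27.2% and 28.5% of the 5986. None of the 169 spots of the 100 contigs was saturated or marked as an outlier on any array.

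For the 69 contigs with 2 spots, spots of the same array differed with a median SD of 0.061, against 0.085 for the 4366 contigs with 2 spots past the filters. Averaging 2 spots with that noise gives an SD of 0.043. Computed for each contig, the share of the variance between arrays expected from spot noise had a median of 13.7%. Over the 4366 contigs the median share was 3.61%. The levels of the 2 spots still followed each other over the arrays, with a median correlation of 0.819 across the 16 arrays for the 69, and the spots share the array, its labelling and its scaling. The exception was a contig of the 69 whose spots had a covariance below 0. In contig_2181 the spots correlated at 0.256 and in contig_4040 at 0.442, both below that median. The error that the scanning software attaches to each signal was nearly the same for all 100 contigs, from 0.144 to 0.148 on the log2 scale. It was larger than the SD between arrays for 136 of the 5986. These include all 100, which the choice of SDs up to 0.139 fixed. This error is given per spot and was larger than the 0.061 measured between spots, so it is not read as the noise of these levels.

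Contigs left out by the rule for abundance or for many spots were compared with the last of the 100. Among the 200 most abundant contigs in the controls, 5 had an SD no higher than that contig, beside 1.67% of the 5986. The lowest SD of the 200 was 0.119 and their median 0.294, against a median of 0.325 over the 5986. Of the 50 contigs printed 10 or 11 times, 33 were above background on every array and none was as constant. At a share of 1.67% among the 5986, nothing is read from the absence among 33. The average of so many spots carries less spot noise. The lowest SD of the 33 was 0.202 and their median 0.423.

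Array by array, the mean deviation of the 100 contigs from their own means stayed between -0.053 on cyfluthrin replicate 2 and 0.074 on cyfluthrin replicate 4. The spread of the 100 deviations within an array was 0.110 ± 0.014 in control and 0.117 ± 0.0081 with cyfluthrin (mean and SD of the within-array SDs over n = 8 arrays each). The ranges of the groups overlapped, from 0.086 to 0.126 and from 0.104 to 0.129. Cyfluthrin replicate 4 was the highest array for 21 of the 100 contigs, and cyfluthrin replicate 2 was the lowest for 15. No other array was the highest for more than 12 or the lowest for more than 9.

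**Figure D2:**
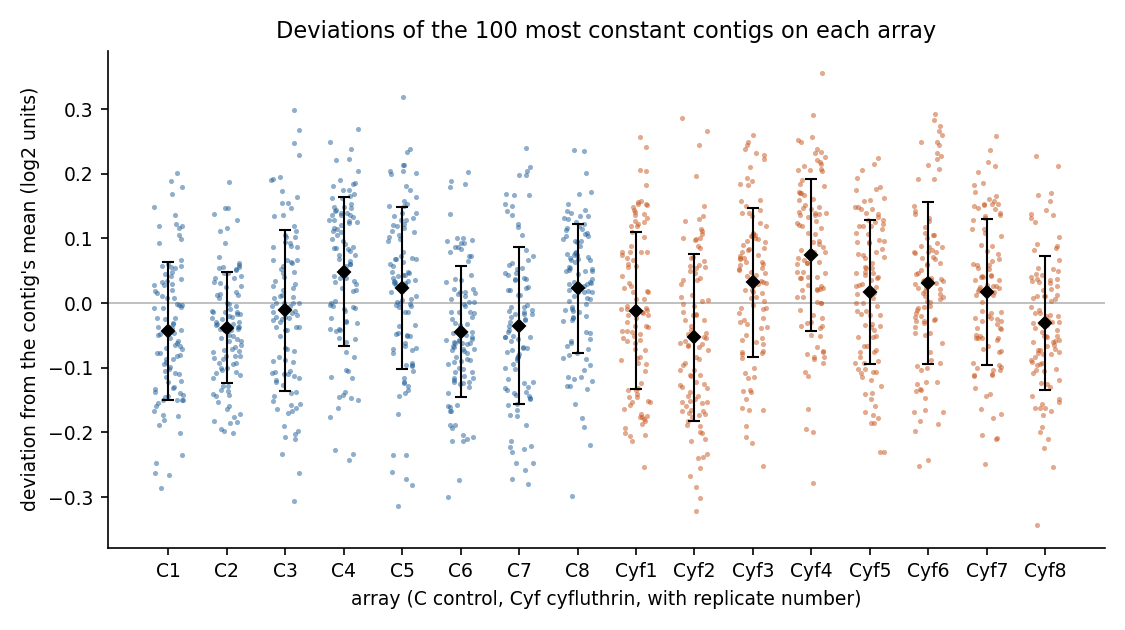
Deviation of each of the 100 contigs from its own mean over the 16 arrays (log2 units), 1 column per array, control in blue and cyfluthrin in orange; black diamonds and bars are the mean and SD of the 100 deviations. The means lie between -0.053 and 0.074, lowest on cyfluthrin replicate 2 and highest on cyfluthrin replicate 4.

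The contigs did not vary independently of each other. On the leading principal component of their deviations 78 of the 100 loaded with the same sign, and the 2 components after it held 12.4% and 11.2% of the variance. Over the 4950 pairs of contigs the correlation across the 16 arrays had a median of 0.095 and ran from -0.874 to 0.852. All pairs share the same arrays and the same scaling, and contigs are not independent replicates.

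The means of the 100 contigs in the 2 groups were close, as the choice by SD requires. The cyfluthrin minus control difference in level ran from -0.21 to 0.22 with a median of 0.018, and 81 of the 100 differed by less than 0.1 in size, against 29.2% of the 5986. With limma at an adjusted p under 0.05 over all 7574 contigs tested, 1 of the 100 was called, beside 7.41% of all contigs tested, and 4 had an unadjusted p under 0.05, beside 21.8% of all contigs tested. The groups did not overlap for 1 of the 100, beside 1.91% of all contigs tested. Because the rule used these values, nothing is read from either count.

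The contig whose groups did not overlap was contig_1915. Its level was 0.054 at the lowest, 0.11 at the median and 0.19 at the highest in control, and -0.20, -0.11 and 0.0062 with cyfluthrin. Every cyfluthrin array lay below every control array, although its SD over all 16 arrays was only 0.125. The greatest positive difference was that of contig_6346, with control levels of -1.15, -1.10 and -0.93 and cyfluthrin levels of -0.96, -0.86 and -0.76. Control replicate 7, at -0.93, lay above the lowest cyfluthrin array, and the other 7 controls lay below all of them. This was the contig called, and like the other calls among the 100 it is given as a description, since the rule used these levels.

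The call was absent when any 1 of 13 of the 16 arrays was left out. With scaling to the mean of the 100 contigs, contig_1915 was called in its place. Under quantile normalization 7.9% of the contigs tested were called and again 1 of the 100, here contig_1739, singled out after its values were seen. Its levels with the 75th percentile were 3.03, 3.23 and 3.31 in control and 3.09, 3.35 and 3.41 with cyfluthrin, which overlapped. After contig_6346 and contig_1915, the next difference in each direction was smaller. In contig_3783 the levels were -0.98, -0.82 and -0.73 in control and -0.84, -0.62 and -0.52 with cyfluthrin, a difference of 0.19 between means with some overlap. In contig_5171 they were 0.0095, 0.22 and 0.33 in control and -0.066, 0.078 and 0.25 with cyfluthrin, a difference of -0.11 with wide overlap.

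A contig used alone as a reference takes its own group difference from every log2 change: 0.22 for contig_6346, -0.21 for contig_1915 and -0.0051 for contig_4040. Between slides, the difference (mean on slide 2 minus that on slide 1) had a median size of 0.040, close to the 0.041 between groups, and was at most 0.12, in contig_3190 (-0.12) and next in contig_7515 (0.11). In contig_3190 the levels were 2.44, 2.51 and 2.60 in control and 2.28, 2.45 and 2.68 with cyfluthrin. In contig_7515 they were 0.26, 0.30 and 0.51 in control and 0.11, 0.42 and 0.61 with cyfluthrin.

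For 58 of the 100 the cyfluthrin arrays had the greater SD, against 74.9% of the 5986. Its median was 0.115 in control and 0.122 with cyfluthrin for the 100, and 0.251 and 0.332 for the 5986. The choice of a low SD over all arrays limits both, so the smaller lean to cyfluthrin among the 100 was not tested.

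Arrays that took no part in the choice show how constant such a list is elsewhere. When the 100 contigs with the lowest SD were chosen on the 8 arrays of slide 1 alone, their median SD was 0.104 there and 0.180 on the 8 arrays of slide 2, against 0.306 for all 5986 on slide 2. Chosen on slide 2, the median was 0.101 there and 0.178 on slide 1, against 0.332. On the slide that did not choose them, 72 and 81 of the 100 lay in the lowest 25% of SDs, and 2 and 5 above the median. The lists of the 2 slides shared 10 contigs. The slides carried different samples but the same laboratory's labelling, and the filters on background and abundance read all 16 arrays.

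**Figure D3:**
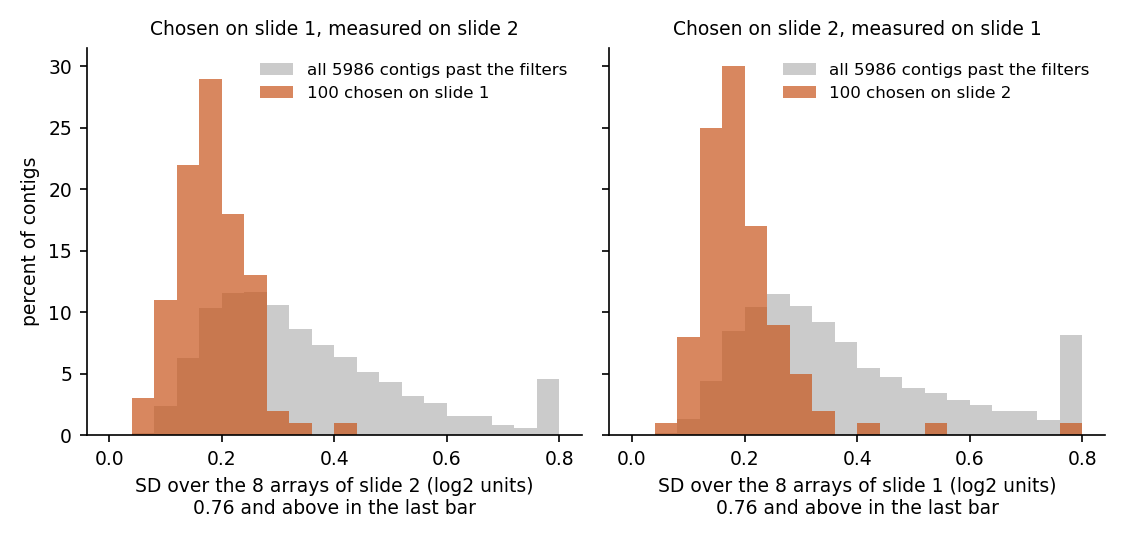
Distribution of the SD over the 8 arrays of a slide (log2 units) for the 100 contigs chosen on the other slide (orange) and for all 5986 contigs past the filters (grey), in percent of contigs. The medians are 0.180 against 0.306 on slide 2 and 0.178 against 0.332 on slide 1.

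Of the contigs chosen on slide 2, 1 reached an SD of 1.09 on slide 1, and the highest SD of those chosen on slide 1 was 0.406 on slide 2. A low SD over 8 arrays thus left room for a large spread on other arrays in single contigs.

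A list chosen on the control arrays alone, as would be done before an exposure is known, was measured on the cyfluthrin arrays. Its median SD was 0.079 in control and 0.211 with cyfluthrin, where all 5986 had 0.332, and 66 of the 100 lay in the lowest 25%. It shared 20 contigs with the list over all arrays. The size of the cyfluthrin minus control difference, which that choice did not use, had a median of 0.15 in this list, against 0.18 over the 5986. It was above 0.2 for 33 of the 100, beside 2757 of the 5986, with 0.86 as the greatest in the list. Above 0.5 were 1 of the 100 and 11.2% of the 5986. A list chosen on the cyfluthrin arrays shared 44 with the list over all arrays, and its median SD was 0.101 there and 0.151 in control.

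The scaling decided which contigs were most constant. With each array scaled to its median in place of its 75th percentile, 17 of the 100 were chosen again, and with quantile normalization 51. The authors' deposited values, which follow quantile-normalized signals, gave 50, and normexp background correction gave 33. Scaled to spike-in probes, none of the 100 was chosen again. Without control replicate 3 and cyfluthrin replicate 1, the arrays that the spike-in probes set apart, 28 of the 100 were chosen again under spike-in scaling, and 63 under the 75th percentile itself.

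The measure and the arrays mattered as well. The median absolute deviation gave 34 of the 100, the pooled SD within groups 59, the range over the arrays 76, and 10 contigs from each level bin 65. The 65 follow from the fill of the bins, since at most 10 of a bin could be kept. The stability measure M of geNorm, the mean SD of a contig's log2 ratio to every other contig, needs no scaling, and it chose 61 of the 100 among the 5986, all 10 of the most constant among them. Leaving out each array in turn kept 75 to 93, fewest without cyfluthrin replicate 1, and 63 of the 100 stayed in all 16 of these lists.

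**Figure D4:**
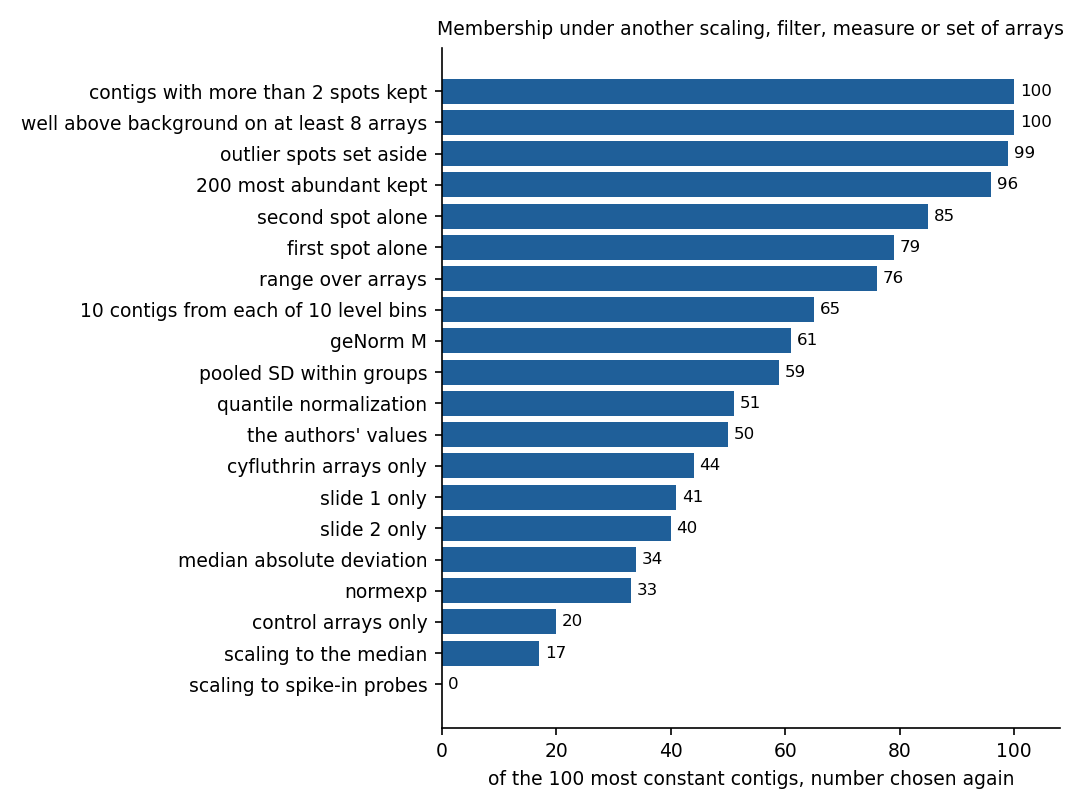
Number of the 100 most constant contigs that were chosen again under another scaling, filter, measure or set of arrays (bars, number at the end). Of the bars shown, those for the filters on outlier spots, background, abundance and more than 2 spots and those for ranking on 1 spot alone lie between 79 and 100, while scaling to the median kept 17 and scaling to spike-in probes 0.

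The lists also moved along the range of levels. The 100 chosen with median scaling had a median level of -1.11, those chosen with quantile normalization 1.06 and those chosen by M -0.18, against 0.24 with the 75th percentile. Among the 100, those kept under median scaling had a median level of -0.66 and the others 0.37. The SD of the 100 contigs themselves was 0.194 (median) under median scaling, 0.129 under quantile normalization, 0.196 after normexp and 0.371 under spike-in scaling, or 0.207 there without the arrays set apart. All 100 kept an SD below the median of the 5986 under these 4 settings with all arrays, the highest lying at the 47.9th percentile, after normexp.

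A core of 9 contigs was chosen under the 75th percentile, the median, quantile normalization and the authors' values alike, and all 9 were also among those chosen by M. No contig of the 100 was chosen under spike-in scaling with all arrays, so none passed every scaling. The most constant of the 9 was contig_2181, with SDs of 0.078, 0.090, 0.065 and 0.065 under those 4 settings and 0.373 under spike-in scaling. The next was contig_6829, with levels of -1.46, -1.18 and -1.11 in control and -1.35, -1.18 and -1.08 with cyfluthrin, where the -1.46 belonged to control replicate 3 and the other 7 controls lay at -1.24 or above. In contig_7228 the levels were -0.95, -0.82 and -0.64 in control and -0.97, -0.81 and -0.61 with cyfluthrin, nearly the same span in both groups.

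With 1 spot per array, contig_726 had control levels of 0.45, 0.52 and 0.64 and cyfluthrin levels of 0.33, 0.45 and 0.72, the controls inside the span of the cyfluthrin arrays. In contig_118 the levels were -1.43, -1.15 and -0.99 in control and -1.26, -1.16 and -1.04 with cyfluthrin, here with the cyfluthrin arrays inside the span of the controls. The SDs of these 4 over all arrays were at most 0.111 under the 75th percentile and lay between 0.157 and 0.163 under median scaling.

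References are usually averaged. The SD over the arrays of the mean of the most constant contigs fell from 0.077 for 1 contig to 0.046 for 2, 0.045 for 3 and 0.032 for 5. It was 0.033 with 10, 0.030 with 20, 0.037 with 50 and 0.038 with all 100. Chosen on slide 1 and measured on slide 2, the SD was 0.113 for 1 contig, 0.053 for 5, 0.044 for 20 and 0.063 for 100. In the opposite direction it was higher, at 0.237 for 1, 0.140 for 5, 0.075 for 20 and 0.085 for 100. In each of the 3 series the lowest of the sizes tried was 20 contigs.

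**Figure D5:**
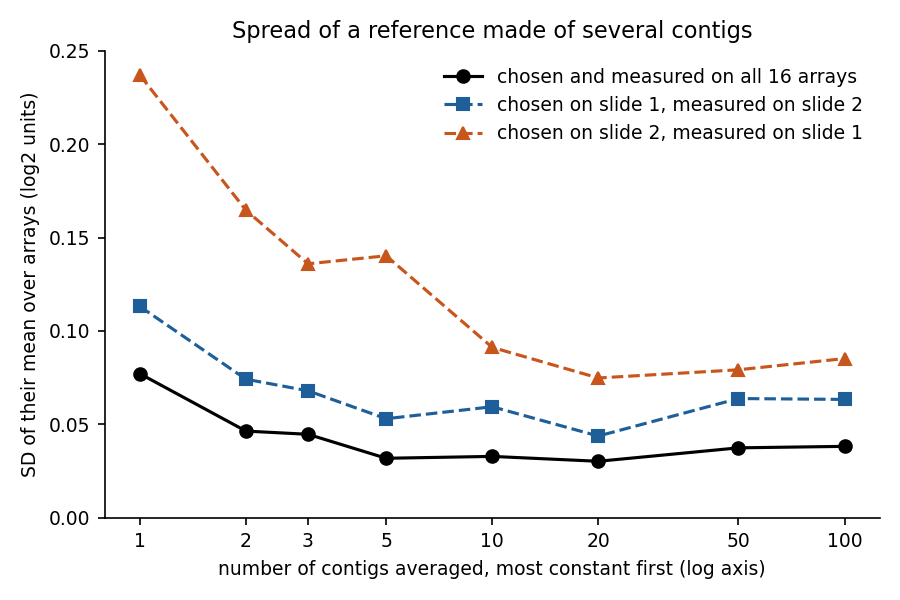
SD over arrays of the mean of the most constant contigs (log2 units) against the number averaged (log axis), for contigs chosen and measured on all 16 arrays (black, circles) and for contigs chosen on a slide and measured on the other (blue and orange, dashed). All 3 lines are lowest at 20 contigs, at 0.030, 0.044 and 0.075.

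Ratios between members ranked the contigs partly differently. Among the 100 the mean M was 0.164 (0.134 to 0.198), the lowest that of contig_4040 and the next that of contig_7624 (0.136), while contig_2181, second by SD, had 0.155. Removing the least stable contig step by step left contig_4040 and contig_7624, whose log2 ratio had an SD of 0.0765 over the 16 arrays and ran from -1.76 to -1.49. The level of contig_4040 relative to the 75th percentile had nearly the same SD, 0.0771.

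As a scale for the whole array, the mean of the 100 contigs was close to the 75th percentile from which they were chosen. It differed between the groups by 0.019 (control mean 0.318 ± 0.036, cyfluthrin mean 0.337 ± 0.040; SD over n = 8 each), less than the spread between arrays. The comparison of cyfluthrin with control was repeated with each array scaled to this mean: 621 of 7574 contigs, 8.2%, were called (257 up and 364 down; limma at an adjusted p under 0.05), against 561 (284 and 277) with the 75th percentile. Of the 561, 532 remained called in their direction. The share of higher calls was 41.4% against 50.6%, with a median log2 change of all contigs of -0.010 against 0.0087. With the 3 most constant contigs as the scale, 276 were higher and 278 lower, 7.31% of the contigs tested, and 536 of the 561 remained. The median SD within groups over the 7574 contigs was 0.351 with the 100 as scale, 0.346 with the 3, 0.344 with the 75th percentile, 0.315 with quantile normalization and 0.506 with spike-in probes.

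References from other arrays could be applied within a slide. Scaled to the 100 contigs chosen on slide 2, slide 1 alone gave 41 contigs up and 23 down, against 46 and 22 with the 75th percentile (68 of 7574 called, 0.898%; limma, adjusted p under 0.05). Scaled to those chosen on slide 1, slide 2 alone gave 12 and 13, against 23 and 14 (37 called, 0.489%). None of the 100 was called on either slide with the 75th percentile. Within a slide each group filled its own row, so cyfluthrin and array row cannot be told apart in these counts.

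Spike-in probes took no part in the choice, while the mean of the 100 contigs comes from it, and the 2 yardsticks are given side by side. The spike-in level relative to the mean of the 100 contigs was -0.14 at the lowest, 0.73 at the median and 0.78 at the highest in control, and 0.53, 0.64 and 1.58 with cyfluthrin. The groups overlapped, with a mean of 0.62 ± 0.31 and 0.85 ± 0.37 (SD, n = 8 each). The difference of 0.23 did not exceed the spread between arrays (exact permutation p = 0.232 over all 12870 choices of 8 arrays, 2-sided). Without control replicate 3 and cyfluthrin replicate 1 it was 0.017 (exact permutation p = 0.87), and omitting these extremes of both groups had to lessen it.

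Under spike-in scaling the mean of the 100 contigs differed between cyfluthrin and control by -0.23, with differences of -0.12 when control replicate 3 was omitted, -0.13 when cyfluthrin replicate 1 was, and -0.017 when neither was used. The part of labelling, of the amount of spike-in RNA and of the amount of RNA in the sample in these differences was not tested.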

How the data were processed

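Processed signals in the deposited scanner files are a linear intensity per spot, written by Agilent Feature Extraction 10.7.1.1 per the file headers (9.1 per the submitters' processing notes), and were not normalized between arrays. Values of the authors' deposited table are log2; its columns had medians from -0.038 to 0.048 and correlated at 0.994 to 0.999 with quantile-normalized, median-centred log2 signals, and how it was made is not stated in the labels. The rule for the 100 contigs used all spots. The members, lists and tests were chosen with earlier results of these data known. For the comparison of groups, spots marked as outliers were set aside, contigs needed 50% of their spots well above background on at least 8 arrays (7574 contigs), and limma 3.58.1 in R 4.3.3 was fitted with no covariate (Benjamini-Hochberg over all contigs, threshold 0.05). The code of the fit and of the ranking was tested on simulated data with planted answers. There a gap in SD set the planted constant contigs apart, which the real list lacks, so the ranking test checks the code alone. Spike-in level was the mean of 5 of 10 probes, those above background, unsaturated and correlated over 0.8 with the others. Contigs named are the 5 lowest SDs, 3 on each side of the edge, the extremes of level, of group difference and of slide difference, the last geNorm contigs, and the 5 most constant kept under other scalings; spike-in scaling kept none and was left out of the last. Samples were grouped by title. The number of arrays limits the precision. Alternatives were other scalings, filters, measures, blocks and sets of arrays. Cell markers could not be checked, since contigs have no names.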

Additional observations from a re-analysis of the deposited data

Results flagged for a closer look

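The 54 sets of 8 arrays examined were made of 4 array-wide measures and the named contigs within each treatment. In 4 sets an array's distance to its nearest neighbour, divided by the whole range of the set, exceeded the 95% value of Dixon's test. Chance gives about 1 in 20 only where the values did not choose the set. The named contigs were chosen by these levels, so that rate does not hold for them and the flags are a description. The spike-in level of control replicate 3 relative to the mean of the 100 contigs was -0.14, and the other 7 controls lay between 0.64 and 0.78. In contig_4193 control replicate 7 had a level of -1.41, with the other 7 controls between -1.22 and -1.09. In contig_6346 control replicate 7 was at -0.93, with the others between -1.15 and -1.06. In contig_6829 control replicate 3 was at -1.46, with the others between -1.24 and -1.11. Their causes were not tested.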

How the results depend on the processing

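Of the 100 contigs, the settings that changed the choice most kept 17 (median scaling), 51 (quantile normalization), 0 (spike-in probes), 50 (the authors' values), 33 (normexp), 31 (1-spot contigs alone), 34 (median absolute deviation), 59 (pooled SD within groups), 65 (level bins), 61 (geNorm M), 20 (control arrays), 44 (cyfluthrin arrays), 41 (slide 1) and 40 (slide 2). The 31 are all of the 100 that had 1 spot, and a level bin could keep 10 at most. Both counts were thus fixed by the makeup of the 100. Without control replicate 3 and cyfluthrin replicate 1, spike-in scaling kept 28 and the 75th percentile 63, alternatives chosen after seeing the data. Leaving out 1 array at a time kept 75 to 93. The median SD of the 100, 0.127, became 0.194 with median scaling, 0.196 with normexp and 0.371 with spike-in probes, or 0.207 without those 2 arrays, and ranged from 0.123 to 0.128 with 1 array left out. The group difference of their mean, 0.019, became -0.23 with spike-in probes, -0.12 without control replicate 3 and -0.13 without cyfluthrin replicate 1, and ranged from 0.0096 to 0.028 with 1 array left out; the spike-in difference ranged from 0.12 to 0.28.

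The 561 contigs called became 349 with median scaling, 183 with spike-in probes, 191 with normexp, 68 on slide 1 and 37 on slide 2, or 64 and 25 with references chosen on the opposite slide (added after seeing the data), and 416 to 791 with 1 array left out. Scaled to the 100, 621 became 66 and 32 on the slides and 456 to 819 with 1 array left out. With the replicate number as a block (replicate block), 365 were called with the 75th percentile and 390 after scaling to the 100. The main fits took no account of these numbers, although same-numbered arrays of the 2 groups shared a slide and a column. The correlation of their deviations was 0.11 on average (-0.297 to 0.383, over 0.1 in 5 of 8 pairs). For pairs with different numbers it was -0.015 on average. Of 16 arrays, 4 correlated best with their own number. Whether the numbers pair the samples cannot be told from these values. Of the 100, 0 were called with median, spike-in, normexp or 3-contig scaling, beside 349, 183, 191 and 554 of all 7574 contigs tested. With a replicate, slide or row block 0 of the 100 were called, beside 365, 528 and 524 of all. On slide 1 and slide 2 alone 0 were called, beside 68 and 37 of all. With 1 array left out 0 to 2 were called, beside 416 to 791. The rule used these levels, so nothing is read from the counts of the 100. Fewer arrays enter the slide fits, in which group and array row cannot be told apart. For the other settings the cause was not tested. The part of signal over background in the higher SDs of dim contigs was not tested.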
